A study of Mus musculus with 2 samples.

Results

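Gata3 binding was examined at 10 genes whose products switch integrins on from inside the T cell or carry the adhesion signal onwards: *Tln1*, *Fermt3*, *Apbb1ip*, *Rap1a*, *Rap1b*, *Rasgrp2*, *Vcl*, *Ilk*, *Ptk2b* and *Fyb*. They were chosen as a group by function, with earlier results of these data known, and are 10 of the 21938 protein-coding genes of the GENCODE M21 annotation. For each gene the locus was its body and the 20 kb on either side. The data are Gata3 ChIP-seq of TH2 cells made in culture, in 2 libraries numbered as replicates 1 and 2 of 1 condition. In the study's mouse TH2 cultures, naive CD4+ T cells of the spleen were stimulated through CD3 and CD28 with IL-2. IL-4 and an antibody neutralising IFN-γ were added to polarise them. Crosslinked chromatin was sheared and pulled down with the anti-GATA3 antibody D13C9. It was then cut on the beads by a transposase that adds the sequencing adaptors (ChIPmentation). Neither input nor IgG reads were used, and the labels give no genotype, age, time point or number of animals; a Cd4-Cre designation that accompanies the deposited reads appears in no label, and any allele it acts on is not given in the sources used here. One protocol field of the labels names ILC2 where the other fields and the study's methods name TH2 cells. Whether the libraries came from separate cultures is not stated, so the spread between them may be technical, and each came from its own sequencing instrument, so library and sequencing run cannot be told apart.

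Integrins rest on the T cell surface in a bent form that binds ligand poorly. Signals from the T cell receptor or a chemokine receptor load the small GTPases Rap1a and Rap1b with GTP, a step that the exchange factor Rasgrp2 drives. Active Rap1 and its adaptor Apbb1ip (also called RIAM) bring talin, the product of *Tln1*, to the integrin β tail. Talin and kindlin-3, the product of *Fermt3*, bind that tail together and open the integrin. The adaptor ADAP (*Fyb*) couples the T cell receptor to integrin activation. Vinculin (*Vcl*), integrin-linked kinase (*Ilk*) and the FAK relative Pyk2 (*Ptk2b*) act around the engaged integrin, linking it to actin and to kinase signalling. Gata3 is the transcription factor that defines TH2 cells and binds DNA at GATA sequences.

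On the 19 autosomes, X and Y, library 1 had 40504814 reads and library 2 had 24959052, which is 2.97 and 1.83 reads for an average 200-bp window. A peak is a run of 200-bp windows holding more reads than the local density of the same library allows (exact Poisson test, one-sided, with the Benjamini-Hochberg adjusted value at or below 0.01), and it counted as shared where the peaks of both libraries overlapped. Of 71726 peaks in library 1 and 28204 in library 2, 23806 were shared. Heights are the reads of the highest window of a peak per 1000000 reads of the library (RPM), each library at its own summit, and a shared peak is ranked by the lower RPM of the pair. Intervals are 95% exact intervals, Poisson for a height and binomial for a ratio of heights, and cover counting error only. Among TH2 genes, *Gata3*, *Il4*, *Il5*, *Il13*, *Il1rl1* and *Ccr8* all had shared peaks in their loci (22 distinct peaks, 7.15 per 100 kb, with the sequence that the *Il4* and *Il13* loci share counted once), against 4 of 6 loci of genes of other tissues, with 4 peaks and 1.11 per 100 kb. The TH2 peaks reached 5.43 RPM, at a peak that both of these loci hold.

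The locus of *Rasgrp2*, on chromosome 19, held 0 reads of either library in the data used here, in a stretch where the neighbouring genes have none either, although only 1.97% of its 50-base stretches have another copy in the genome. *Rasgrp2* was therefore not analysed here, and nothing on Gata3 binding follows from it. The other 9 loci, 998 kb in all, held reads of both libraries. They are compared with the 21150 protein-coding genes whose loci did.

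Gata3 peaks were found in both libraries at 7 of the 9 loci, those of *Apbb1ip*, *Rap1a*, *Rap1b*, *Vcl*, *Ilk*, *Ptk2b* and *Fyb*, while *Tln1* and *Fermt3* had none in common. Across all protein-coding genes with reads, 56.8% had a shared peak in such a locus, so the share of loci with a peak says little by itself. The number of peaks per locus stood further from the background. The 9 loci held 49 shared peaks, with a median of 7 per locus against 1 over all genes. Since these loci are mostly long (46.3 to 180 kb, against a median of 57.9 kb over all genes), peaks were also counted per length: 4.91 per 100 kb over the 9 loci together, against 1.39 over the loci of all genes together, and a median of 4.32 per locus, against 1.12. These are descriptions of 9 chosen loci, and no test of the list was made.

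*Fyb* had the most shared peaks, 13 in 180 kb, a number above that of 99.8% of genes. *Apbb1ip* followed with 9, *Rap1a* with 8, and *Rap1b* and *Ptk2b* with 7 each. *Vcl* had 3 and *Ilk* 2. Per length the order changed. *Rap1b*, with 7 peaks in 72.2 kb, was densest at 9.70 per 100 kb, above 99.7% of genes, and was followed by *Fyb* at 7.20, *Rap1a* at 7.01 and *Apbb1ip* at 6.36. *Ilk* had 4.32 and *Ptk2b* 4.17 per 100 kb, and *Vcl*, at 2.08, lay above 68.4% of genes only. The *Ilk* value rests on 2 peaks in the shortest locus. Both orders depend on the threshold and on library 2. In library 1 alone *Rap1a* was densest at 11.4 per 100 kb, followed by *Rap1b* at 11.1, *Ptk2b* at 10.1 and *Fyb* at 9.97, and *Vcl* had 6.93 in place of 2.08. By number *Fyb* still led with 18 peaks, and *Ptk2b* came next with 17. Library 2 alone gave the shared order by density. At a q of 1e-10 *Rap1a* had the most peaks, 5 (4.38 per 100 kb), with 3 at *Fyb* (1.66) and 2 each at *Rap1b* (2.77), *Apbb1ip* (1.41) and *Ptk2b* (1.19). At 5 times the local density or more *Rap1a* had 3 (2.63 per 100 kb), *Vcl* 2 and each of the other 5 genes 1. With summits required to lie within 100 bp of each other, *Fyb*, *Rap1a* and *Rap1b* had 7 each.

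**Figure D1:**
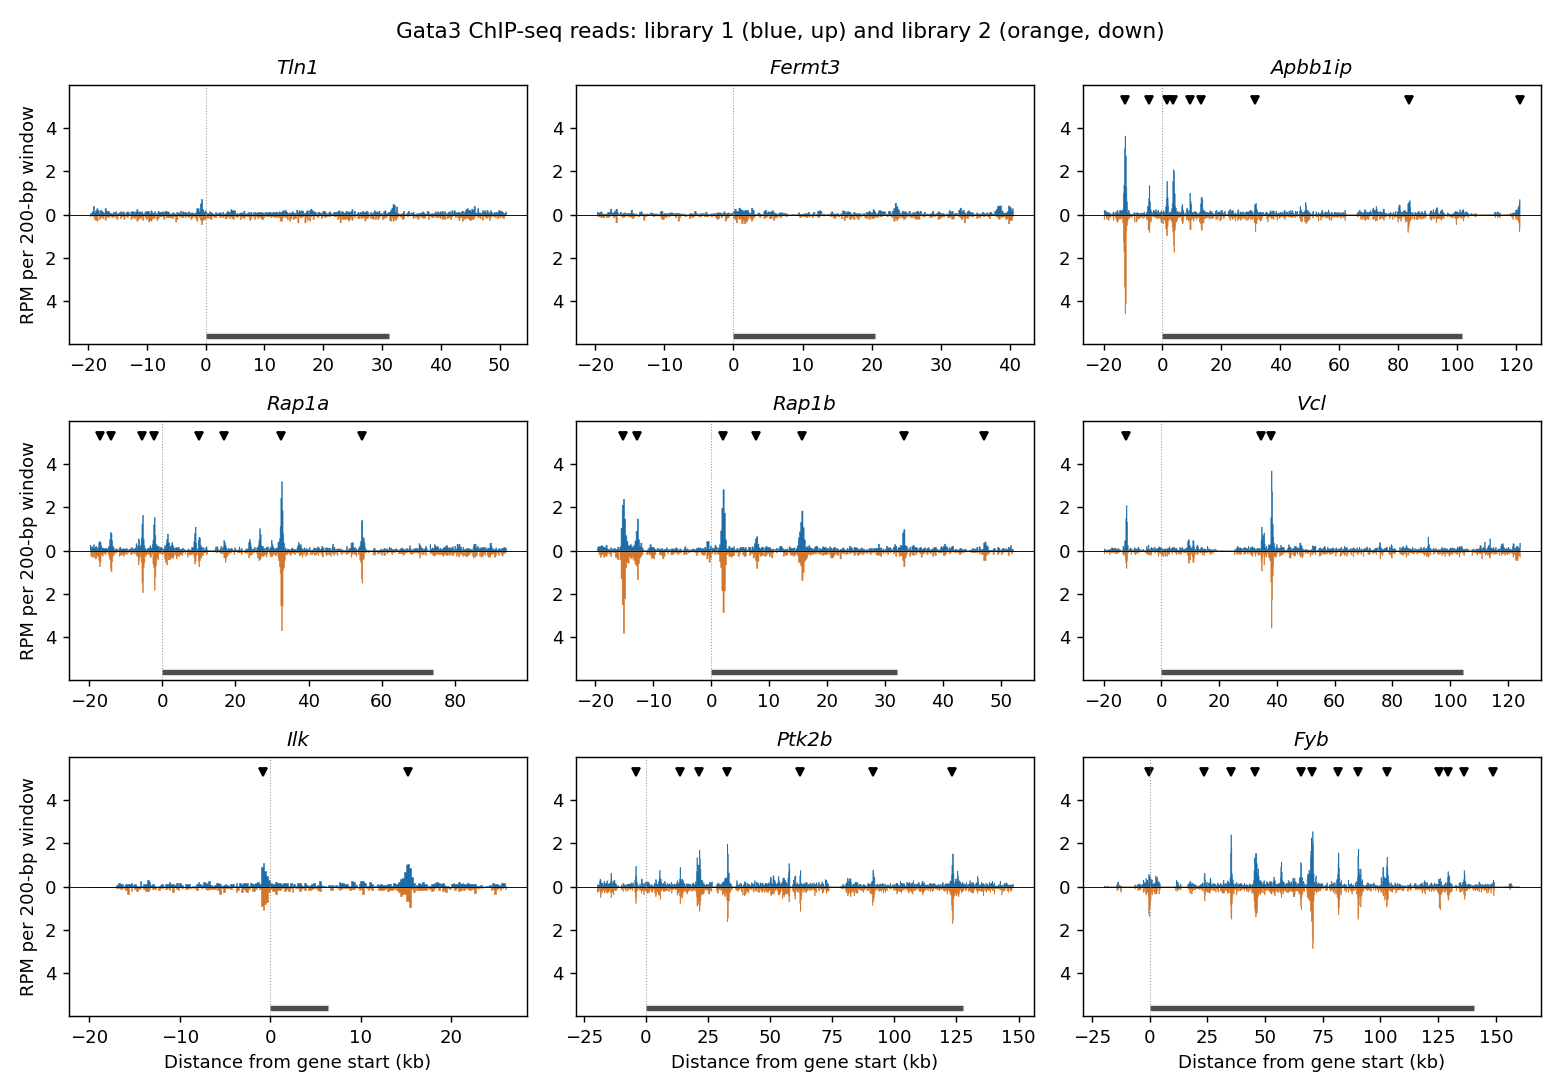
Gata3 ChIP-seq reads (RPM) in 200-bp windows (vertical axis, library 1 upwards in blue, library 2 downwards in orange) by distance from the gene start in kb (horizontal axis, in the direction of transcription) for the 9 loci with reads. Grey bars mark the gene bodies and black triangles the 49 shared peaks, and *Tln1* and *Fermt3* have none.

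Read density over whole loci uses no peak threshold. It counts the same reads, those in peaks included, so its order and that of the peaks are not independent. The 5 loci with the most shared peaks were also the densest in reads, in an order of their own. Library 1 and library 2 held 2.66 and 2.75 times their genome-wide mean over the *Rap1b* locus, 2.36 and 2.47 times over *Rap1a*, 2.35 and 2.24 times over *Fyb*, 2.20 and 2.29 times over *Ptk2b* and 2.07 and 2.01 times over *Apbb1ip*. These 5 loci lay above 93.9% to 98.9% of genes. *Ilk* (1.74 and 1.84 times), *Vcl* (1.75 and 1.51 times) and *Tln1* (1.68 and 1.65 times) lay between 77.2% and 86.6%. By the mean of both libraries *Tln1*, without a shared peak, stood above *Vcl*, with 3 (1.66 against 1.63 times). *Fermt3*, at 1.34 and 1.23 times, lay below the median of all genes, which was 1.38 in library 1 and 1.35 in library 2. The reads of a whole locus include background reads, which were not separated here for want of an input.

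The sequence at the tallest shared peak of each gene is shown here because the results by gene turn on these summits, and that at the start-site peaks of *Apbb1ip* and *Fyb* because the start-site calls of these genes rest on them. Each is the plus strand of GRCm38, 75 bases either side of the library 1 summit, in lower case. Capitals mark a GATA hexamer on either strand (the usual form AGATAA, the form ending in G, which is AGATAG, and the 2 that begin with T instead, the hexamer TGATAA and the hexamer TGATAG), which are letters that GATA factors are known to prefer. In the first sequence the hexamer is on the minus strand, so its letters there are the reverse complement. In the *Vcl* sequence the capitals mark the AP-1 sequence TGACTCA, or TGAGTCA when read from the other strand, the site of Jun and Fos proteins.
*Apbb1ip*, 12794 bp before the start, chr2:22761225-22761375: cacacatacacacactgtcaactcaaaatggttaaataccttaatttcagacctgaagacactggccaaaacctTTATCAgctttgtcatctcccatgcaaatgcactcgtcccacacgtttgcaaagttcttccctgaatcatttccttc
*Apbb1ip*, 1456 bp after the start, chr2:22775475-22775625: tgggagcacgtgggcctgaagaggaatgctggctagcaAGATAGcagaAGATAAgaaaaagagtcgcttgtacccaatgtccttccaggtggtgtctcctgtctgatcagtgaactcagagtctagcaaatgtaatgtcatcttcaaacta
*Rap1a*, intron 1, chr3:105768675-105768825: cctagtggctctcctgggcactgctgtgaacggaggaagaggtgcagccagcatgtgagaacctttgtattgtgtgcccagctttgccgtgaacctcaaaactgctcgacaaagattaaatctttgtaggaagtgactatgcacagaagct
*Rap1b*, intron 1, chr10:117843925-117844075: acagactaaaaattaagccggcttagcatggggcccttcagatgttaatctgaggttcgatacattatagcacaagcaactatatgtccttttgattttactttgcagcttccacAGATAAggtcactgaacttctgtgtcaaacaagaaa
*Vcl*, end of intron 1, chr14:20967425-20967575: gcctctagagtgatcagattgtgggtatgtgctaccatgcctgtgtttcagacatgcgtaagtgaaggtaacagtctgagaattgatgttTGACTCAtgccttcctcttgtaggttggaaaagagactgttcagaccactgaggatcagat
*Ilk*, 792 bp before the start, chr7:105735725-105735875: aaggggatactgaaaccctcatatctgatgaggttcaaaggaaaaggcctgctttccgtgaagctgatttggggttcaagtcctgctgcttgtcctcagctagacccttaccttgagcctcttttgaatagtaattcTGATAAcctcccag
*Ptk2b*, intron 1, chr14:66248175-66248325: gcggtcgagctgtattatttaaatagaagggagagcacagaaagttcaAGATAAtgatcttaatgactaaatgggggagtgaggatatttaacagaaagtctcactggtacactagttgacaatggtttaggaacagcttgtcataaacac
*Fyb*, intron 1, chr15:6593275-6593425: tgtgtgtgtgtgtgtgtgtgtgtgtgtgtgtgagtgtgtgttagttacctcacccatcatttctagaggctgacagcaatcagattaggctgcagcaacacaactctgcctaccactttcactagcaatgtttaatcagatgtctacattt
*Fyb*, 353 bp before the start, chr15:6522425-6522575: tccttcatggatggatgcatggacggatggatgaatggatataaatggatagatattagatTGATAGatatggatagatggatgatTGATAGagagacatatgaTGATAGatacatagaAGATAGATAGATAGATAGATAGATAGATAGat
The *Apbb1ip* upstream peak has its hexamer centred 1.5 bp from the summit. In the plus direction the offset was -24.5 bp in the *Ptk2b* peak, 42.5 bp in the *Rap1b* peak and 64.5 bp in the *Ilk* peak. The *Rap1a* and *Fyb* intron peaks show none of these letters, and the *Vcl* peak shows the AP-1 sequence only. The *Rap1a* sequence overlaps an annotated exon that belongs to no coding *Rap1a* transcript, and the *Vcl* sequence runs into the next exon. In the *Fyb* start-site sequence the AGATAG hexamers form a run of GATA repeats, in which neighbouring ones overlap by 2 bases, and the others stand apart.

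The GTPases come first in the order of signalling. At *Rap1a* (minus strand of chromosome 3, 105727267 to 105801336), which encodes 1 of the 2 Rap1 proteins, 4 shared peaks lay in the 20 kb before the gene and 4 in its introns. The tallest, in intron 1 and 32586 bp after the start, held 130 reads in library 1 (3.21 RPM, 2.68 to 3.81) and 93 in library 2 (3.73 RPM, 3.01 to 4.56), 6.32 and 6.04 times the local density. It was taller than 97.4% of all shared peaks. In the same intron library 1 alone had peaks at 4 more places, and those of 42 and 46 reads there had 10 and 13 reads in library 2. Upstream, a peak 5464 bp before the start held 74 and 56 reads (1.83 and 2.24 RPM), and another 2164 bp before it held 63 and 45 reads (1.56 and 1.80 RPM). The latter lies just outside the 2 kb counted here as the start site.

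*Rap1b* (minus strand of chromosome 10, 117813871 to 117846035) encodes the other Rap1 protein, the main form in platelets. Its tallest peak lay in intron 1, 2035 bp after the start, with 116 reads in library 1 (2.86 RPM, 2.37 to 3.43) and 71 in library 2 (2.84 RPM, 2.22 to 3.59). This peak too was just beyond the 2-kb limit, and windows on its edge passed the threshold within the limit in both libraries. A second tall peak 15165 bp upstream held 104 and 96 reads, which is 2.57 RPM (2.1 to 3.11) and 3.85 RPM (3.12 to 4.70). This peak was higher in library 2 than in library 1 (ratio 1.5, 95% interval 1.12 to 2.0), but not after adjustment over all shared peaks (exact binomial test, q = 0.208). A further peak 15635 bp into the gene, again in intron 1, held 76 and 35 reads, 1.88 and 1.40 RPM. At both GTPase genes, then, the highest peak by the lower RPM lay in intron 1, and others lay upstream. In library 2 the upstream *Rap1b* peak was the higher of the pair.

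*Apbb1ip* (plus strand of chromosome 2, 22774094 to 22875653), the adaptor between Rap1 and talin, carried the tallest peak of the 49. It lay 12794 bp before the start and held 157 reads in library 1 (3.88 RPM, 3.29 to 4.53) and 120 in library 2 (4.81 RPM, 3.99 to 5.75), at 6.09 and 6.44 times the local density. Of all shared peaks 98.9% were lower, and no other protein-coding start site was nearer. In intron 1, 5 shared peaks followed in the first 31556 bp, the tallest of them 3756 bp after the start with 102 and 47 reads (2.52 and 1.88 RPM). The start-site peak, 1456 bp after the start, held 63 reads in library 1 (3.16-fold) and 26 in library 2 (2.53-fold). In library 2 a single window passed the threshold there, so this shared call is a marginal one. The last of the 9, 121306 bp downstream of the start, lies 122 bp from the start of *Pdss1*, an enzyme of ubiquinone synthesis, and is nearer to that start than to any other.

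At the talin gene *Tln1* (minus strand of chromosome 4, 43531519 to 43562691), library 1 had a peak 709 bp before the start, with 29 reads against a local density of 6.44 (4.5-fold, one-sided exact Poisson p = 6.6e-11). In library 2 the same window held 11 reads, 2.99 times the local density, with a one-sided exact Poisson p of 0.0015, and at least 14 reads would have been needed for a call. Both libraries had their highest window of the whole *Tln1* locus at the same place, 0.716 and 0.441 RPM, but that of library 2 did not pass the threshold. The other library 1 peak of the locus, just beyond the 3′ end of *Tln1*, held 21 reads, against 7 in library 2. *Fermt3* (minus strand of chromosome 19, 6998958 to 7019469), which encodes the kindlin of blood cells, had 2 peaks in library 1 only. They lay downstream of the gene, 649 bp from the start of *Fkbp2* and 117 bp from that of *Nudt22*, with 26 and 24 reads against 6 and 3 in library 2. Within 2 kb of the *Fermt3* start, the highest windows held 14 and 10 reads where 18 and 15 were needed. No shared peak was detected at *Tln1* or *Fermt3*, and neither gene is shown to lack binding. How much the lower depth of library 2 bears on this was not tested. In library 1 alone, 84.3% of all genes had a peak in the locus, and in library 2 alone 61.1%.

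Of the genes that act at the engaged integrin, *Vcl* (plus strand of chromosome 14, 20929398 to 21033676), which ties talin to actin, had 1 tall peak and 2 lower ones. The tall peak lay 38102 bp after the start, at the end of intron 1 and 38 bp before the next exon, with 154 reads in library 1 (3.80 RPM, 3.23 to 4.45) and 89 in library 2 (3.57 RPM, 2.86 to 4.39). It reached 7.10 and 6.76 times the local density and stood above 98.3% of all shared peaks. A peak 12148 bp upstream held 85 reads in library 1 (2.1 RPM, 1.68 to 2.60) but 21 in library 2 (0.841 RPM, 0.521 to 1.29). Of the 10 library 1 peaks at *Vcl*, library 2 lacked 7, and 1 peak of library 2 was lacking in library 1.

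*Ilk* (plus strand of chromosome 7, 105736592 to 105742925), the pseudokinase that joins integrin tails to parvins, is the shortest of the genes and lies among other genes. Its peak 792 bp before the start held 52 reads in library 1 (1.28 RPM, 0.959 to 1.68) and 37 in library 2 (1.48 RPM, 1.04 to 2.04), 5.08 and 5.44 times the local density, with the summit in the same window. This was the only start-site peak of the 9 genes that passed the stricter limits tried (a q of 1e-10, or 5 times the local density). It also lies inside *Rrp8*, a ribosomal RNA methyltransferase gene. The other *Ilk* locus peak lies inside *Tpp1*, a lysosomal protease gene, 435 bp from the annotated start of that gene.

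*Ptk2b* (minus strand of chromosome 14, 66153257 to 66281052), the kinase Pyk2, had peaks spread over its length, 4 of them in intron 1. The tallest, 32802 bp after the start, held 89 reads in library 1 (2.20 RPM, 1.76 to 2.70) and 46 in library 2 (1.84 RPM, 1.35 to 2.46). A peak in intron 27, near the 3′ end and 123402 bp after the start, was close to it in height, with 66 and 45 reads (1.63 and 1.80 RPM). *Ptk2b* also had the most peaks confined to library 1, 10 of its 17 there, and the tallest of those 10 held 61 reads against 23 in library 2.

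*Fyb* (plus strand of chromosome 15, 6522853 to 6663313), the adaptor ADAP that couples the T cell receptor to integrin activation, had 11 of its 13 shared peaks in the gene body. The tallest lay 70497 bp after the annotated gene start and 13479 bp after the nearest start of a coding transcript. It held 104 reads in library 1 (2.57 RPM, 2.1 to 3.11) and 78 in library 2 (3.13 RPM, 2.47 to 3.90). Local density there was the highest at any of the 49 peaks in library 1, so the fold was only 3.10 and 4.08. Of the bases within 100 bp of this summit 35.3% are repeat-masked, and 13.8% of the 50-base stretches there have another copy in the genome, the highest share at any of the 49 summits. Next came peaks 35097 bp (98 and 44 reads), 90297 bp (71 and 42 reads) and 45847 bp (72 and 37 reads) after the start, the last of these 827 bp before the start of another coding *Fyb* transcript. The start-site peak, 353 bp before the annotated start, held 27 reads in library 1 (0.667 RPM, 0.439 to 0.970) and 43 in library 2 (1.72 RPM, 1.25 to 2.32). In library 1 only 1 window passed the threshold there, where 26 reads were needed, so this shared call is marginal too. The peak lies in a GATA repeat. Of the bases within 100 bp of its summit 69.2% are repeat-masked, and 11.8% of the 50-base stretches there have another copy in the genome. These values stand beside the unequal heights of the peak, and their part was not tested.

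The 49 peaks were chosen as overlapping in both libraries, so their places and, in part, their heights are alike by that choice. Of the 84 library 1 peaks in these loci, the 35 that library 2 lacked are not among them. Over the genome, 23806 of the 71726 library 1 peaks were shared. Summits, read in steps of 50 bp, were at the same position in 17 and within 100 bp in 38, with a largest shift of 450 bp, and the ratio of library 2 to library 1 RPM ran from 0.401 to 2.58 with a median of 0.960, against 0.947 over all shared peaks. In 2 of the 49 the heights differed beyond counting error (exact binomial test, q adjusted over the 23806 shared peaks), where 0.441% of all shared peaks did. These were the upstream *Vcl* peak, lower in library 2 (ratio 0.401, 0.236 to 0.652, q = 0.029; 0.155% of all shared peaks were lower there), and the *Fyb* start-site peak, higher in library 2 (ratio 2.58, 1.56 to 4.35, q = 0.034; 0.286% were higher there). The test compares the reads of 2 libraries of the same condition, which also differ in sequencing run. Window by window, Pearson's r of the RPM of the libraries was 0.826 to 0.923 in the 7 loci with a shared peak, 0.468 at *Fermt3* and 0.326 at *Tln1*. Windows of a locus are not independent, and the r of a locus without a peak rests on low counts.

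**Figure D2:**
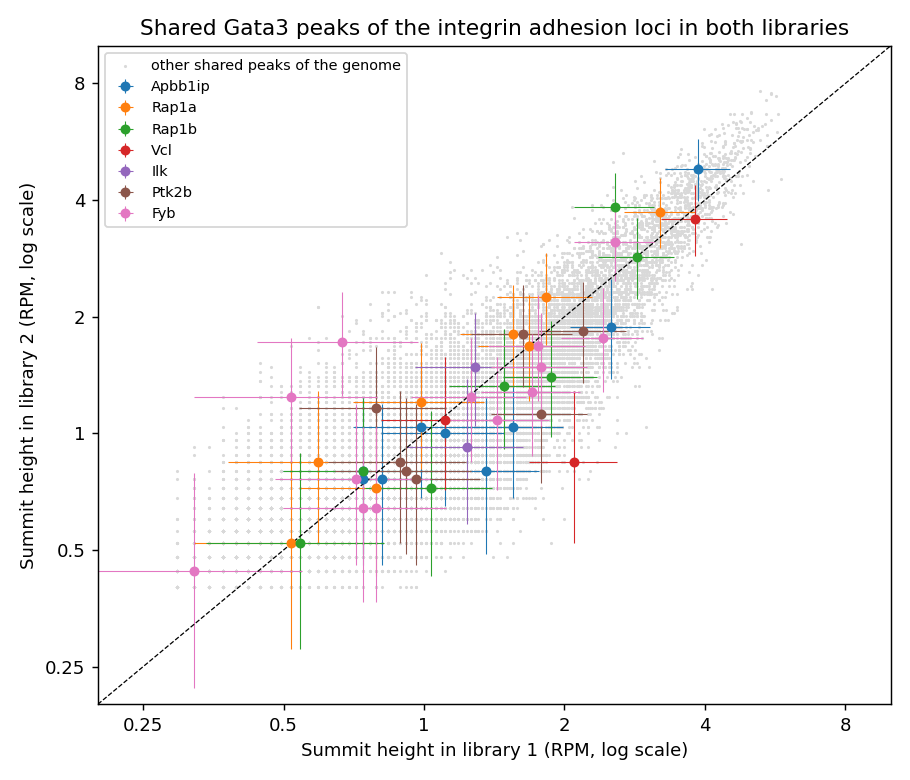
Summit height of the 49 shared peaks in library 1 (horizontal axis) and library 2 (vertical axis), in RPM on log scales, coloured by gene with 95% exact Poisson intervals, over the other shared peaks of the genome in grey and the line of equal heights. Most peaks lie along the line, with the upstream *Vcl* peak (2.1 and 0.841 RPM) below it and the *Fyb* start-site peak (0.667 and 1.72 RPM) above it.

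The peaks ran from 0.321 to 3.88 RPM with a median of 1.0 RPM, against 0.801 over all shared peaks. Of the 49, 30 were above that genome-wide median and 6 stood above 90% of all shared peaks, 2 of these at *Rap1b* and 1 each at *Apbb1ip*, *Rap1a*, *Vcl* and *Fyb*. Fold over the local density, from 2.58 to 7.15 in library 1, did not share this shift, with a median of 4.44 against 4.85 over all shared peaks in library 1 and 4.34 against 4.59 in library 2. The greater heights of these peaks came with a higher local density, which includes the reads of the peak itself.

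By place, 32 of the 49 summits lay in a gene body, 12 in the 20 kb upstream and 5 in the 20 kb downstream. All 32 were intronic and 0 lay in an exon of the transcript with the most exons. Of the 9 genes 6 had a shared peak in the body, where 30.5% of all genes with reads did, and *Ilk* was the exception among the 7 genes with peaks. These bodies are 6.33 kb (*Ilk*) to 140 kb (*Fyb*) long, and the shares were not matched for body length. Intron 1 of that transcript held 21 of the 32, at 7.94 per 100 kb, and the rest of the bodies 11, at 2.94 per 100 kb. Over 21066 protein-coding genes with reads and a coding transcript, the corresponding values were 1.69 per 100 kb in intron 1 and 1.14 in the rest, so intron 1 was the denser there too. The split was 5 against 1 in *Apbb1ip*, 4 against 2 in *Ptk2b*, 3 against 1 in *Rap1a*, 3 against 0 in *Rap1b* and 2 against 0 in *Vcl*. *Fyb* had 4 against 7, and 3 of those 7 lie in the first intron of a longer coding transcript, which begins before the one with the most exons. Intron 1 makes up 41.4% of the 9 gene bodies and 21.6% of the bodies of all those genes. For 13 of the 49 peaks the nearest protein-coding start site belonged to another gene, which was *Rictor*, outside the locus, for the 5 peaks of *Fyb* nearest its 3′ end.

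**Figure D3:**
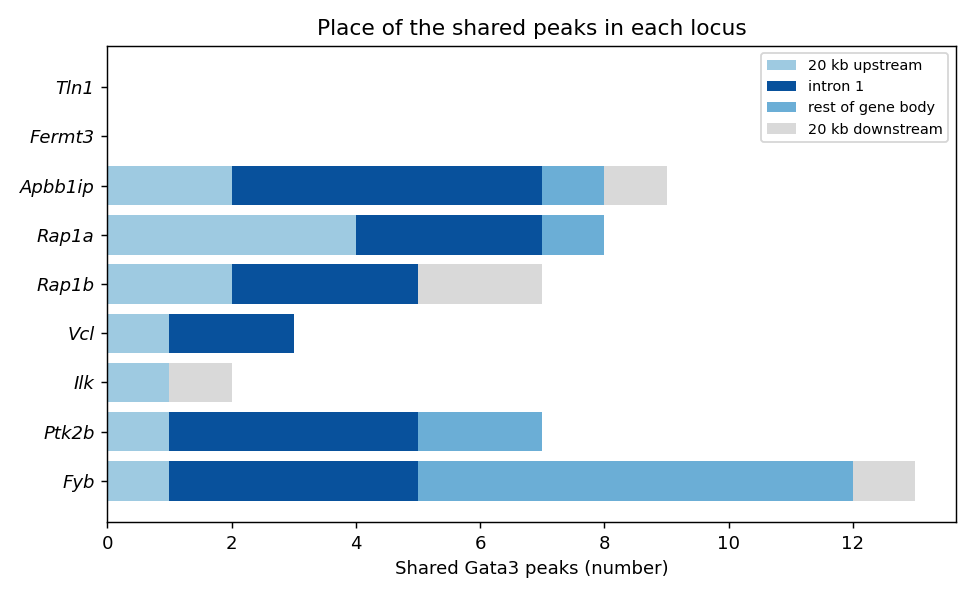
Number of shared Gata3 peaks (horizontal axis) in each of the 9 loci by place of the summit, where intron 1 is that of the transcript with the most exons. Intron 1 holds 21 of the 49 peaks, the rest of the gene bodies 11, the upstream 20 kb 12 and the downstream 20 kb 5 (42.9%, 22.4%, 24.5% and 10.2%), against 14.6%, 35.8%, 26.2% and 23.4% over all protein-coding genes with reads and a coding transcript.

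Within 2 kb of the annotated start, 3 of the 9 genes had a shared summit (*Apbb1ip*, *Ilk* and *Fyb*), where 12.2% of all genes with reads did. The highest windows within that distance held 63 reads in library 1 and 27 in library 2 at *Apbb1ip*, 52 and 37 at *Ilk*, and 27 and 43 at *Fyb*. At *Rap1b* they held 115 and 58 reads, on the edge of the peak centred 2035 bp after the start. At *Rap1a* library 1 had a peak of 32 reads 1386 bp after the start, where library 2 held 5, and library 2 reached 27 reads on the edge of the peak 2164 bp before the start. *Vcl* (8 and 7 reads) and *Ptk2b* (17 and 10 reads) had no window past the threshold in either library, although both carried taller peaks in intron 1.

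**Figure D4:**
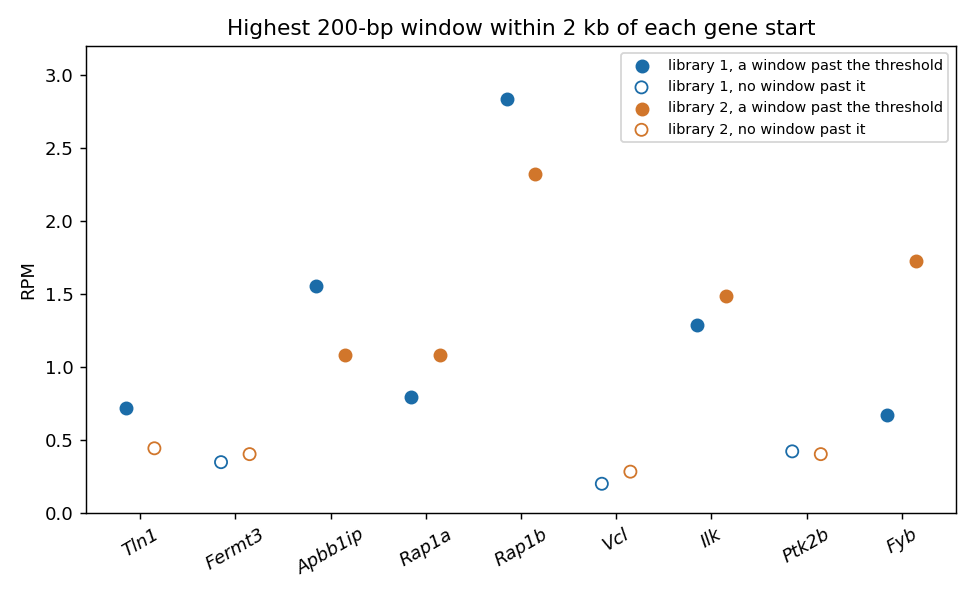
RPM of the highest 200-bp window within 2 kb of each gene start (vertical axis) for the 9 genes with reads, in library 1 (blue) and library 2 (orange). Filled points have at least 1 window past the threshold within 2 kb, which holds in both libraries for *Apbb1ip*, *Rap1a*, *Rap1b*, *Ilk* and *Fyb*, in library 1 only for *Tln1*, and in neither for *Fermt3*, *Vcl* and *Ptk2b*.

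A GATA hexamer lay within 100 bp of 33 of the 49 summits (67.3%). Over all shared summits the share was 71.0%, and over windows of the same length 1 kb beside them 33.4%. The peaks with a hexamer had a median of 1.08 RPM and those without one 0.801 RPM. By gene, a hexamer was found at 9 of 13 *Fyb* peaks, 7 of 9 at *Apbb1ip*, 5 of 7 each at *Rap1b* and *Ptk2b*, 2 of 3 at *Vcl*, 2 of 2 at *Ilk* and 3 of 8 at *Rap1a*. The 4 tallest *Rap1a* peaks all lacked it. The AP-1 sequence lay at 5 summits (10.2%, against 12.3% over all shared summits and 3.55% beside them), those of 1 peak each of *Rap1a*, *Rap1b* and *Vcl* and 2 of *Fyb*. The *Vcl* intron 1 peak held it 2 times within 100 bp and no hexamer. Neither sequence was found at 13 summits. The RUNX sequence TGTGGT, read on both strands, lay at 7 of the 49 (14.3%), against 17.2% of all shared summits and 14.7% of the windows beside them. A match describes the letters only and is not a measured site.

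**Figure D5:**
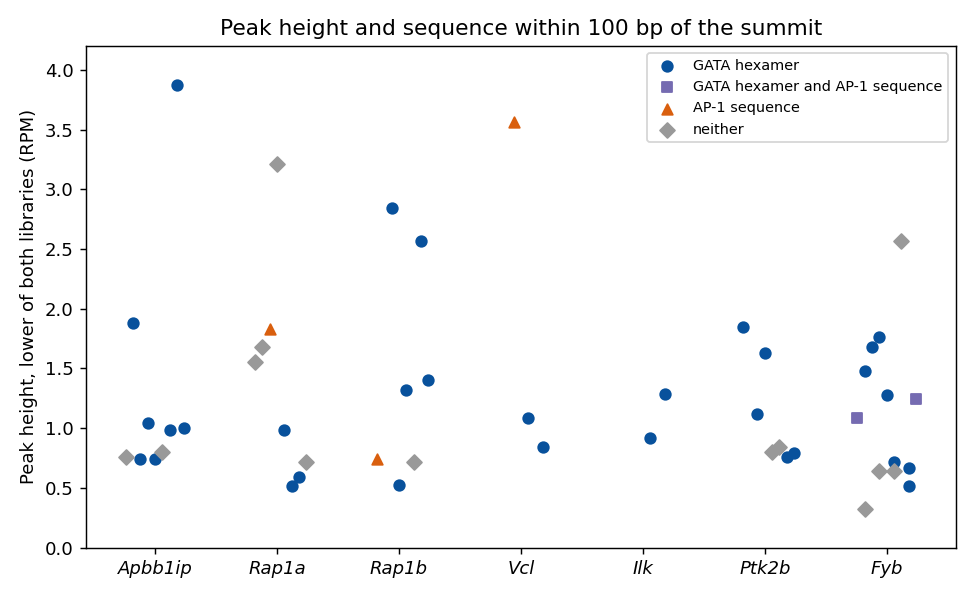
Height of each of the 49 shared peaks (vertical axis, lower RPM of both libraries) by gene, with the symbol giving the sequences within 100 bp of the summit. The tallest peaks of *Apbb1ip* (3.88 RPM) and *Rap1b* (2.84 RPM) hold a GATA hexamer, that of *Vcl* (3.57 RPM) the AP-1 sequence, and those of *Rap1a* (3.21 RPM) and *Fyb* (2.57 RPM) neither.

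RefSeq promoter sequences of GRCm38, from 250 bases before to 50 bases after a start, were read too. Counted from the annotated gene starts, the start-site summits lie outside that span. They are 792 bp (*Ilk*) and 353 bp (*Fyb*) before the start and 1456 bp (*Apbb1ip*) after it. A promoter match is therefore not read here as one under these peaks. Of the genes with reads, 7 had an entry, and only that of *Fyb* held a GATA hexamer, where 29.8% of the 32851 promoters of the collection did. *Rap1a* and *Ptk2b* had no entry.

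Around these genes, 40 further genes of the pathway were read in the same way: paralogues, other regulators and effectors of Rap1, partners of Fyb and of Ilk, other focal adhesion proteins and inhibitors of integrin activation. Of these, 26 (65%) had a shared peak in the locus, against 56.8% of all genes with reads, 22 (55%) had one in the body, against 30.5%, and 5 (12.5%) had one at the start site, against 12.2%. The locus and start-site shares were thus near those of all genes. These loci have a median length of 109 kb, against 57.9 kb over all genes. They held 92 peaks, 1.65 per 100 kb counted locus by locus and 1.66 with sequence that loci share counted once. Both are near the 1.39 per 100 kb over the loci of all genes together, which were counted locus by locus. The paralogues stood low: *Tln2* had 1 shared peak, of 0.963 RPM, in 383 kb, and *Fermt1*, *Fermt2* and *Raph1* had 0. Among regulators and effectors of Rap1, 10 of 13 loci had peaks. *Rapgef2*, an exchange factor, had 11 and *Sipa1l1*, a Rap GTPase activator, 9. *Rasgrp1*, an exchange factor that acts below the T cell receptor and a relative of *Rasgrp2*, was listed in this group. Whether it acts on Rap1 was not examined here. Its locus had 5 peaks, the tallest at 3.53 RPM. *Rassf5* (RAPL), a Rap1 effector, had a single one, of 3.80 RPM. Of the Fyb partners 4 of 5 had peaks, with 7 at *Skap1* and 6 at *Evl*, and of the Ilk partners 3 of 5, with 5 at *Lims1*. Focal adhesion genes had peaks at 7 of 10, the tallest at *Zyx* (3.85 RPM) and at the FAK gene *Ptk2* (3.33 RPM). Of the 3 inhibitors only *Dok1* had a shared peak, 1 of 0.681 RPM. *Rap1b*, with 9.70 peaks per 100 kb, was above each of these 40 genes at the q of 0.01, and *Zyx* was the highest of them at 5.93.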

How the data were processed

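Gata3 ChIP-seq libraries of 1 condition (n = 2) were analysed. According to the labels and the study's methods, the authors mapped reads to GRCm38 with Bowtie2 2.3.5.1 and deposited 1 line per read with position, strand and mapping quality score (22 to 44). The submitters' processing notes also name MACS2 2.1.2, and no peak list was used here. No 2 reads of a library share a 5′ end and strand, so duplicates had been removed, which limits the height of peaks. Library 1 held 40526613 reads and library 2 24970952. Here each read was moved 100 bp in its 3′ direction, and 200-bp windows at 50-bp steps were tested against the greatest of the library, 5-kb and 10-kb means, which include the window's own reads. Passing windows up to 100 bp apart formed a peak, given to a locus by its library 1 summit. At the library mean, 12 and 10 reads made a window pass. Start sites are the 5′ ends of GENCODE M21 genes. Genes were named by the fixed list of 10 and 40 pathway genes and 12 marker genes, and neighbours by nearest start. The members and lists were chosen with earlier results of these data known. The comparison of library heights used the exact binomial test. Peak calling was tried on simulated reads with a Poisson background and sites planted with the 100-bp shift assumed here. Such reads follow the model of the calls, so they cannot show how often real background gives false peaks. Computations used Python 3.11.15, NumPy 2.4.6, SciPy 1.17.1, pandas 2.3.3, pysam 0.24.0 and Matplotlib 3.10.9.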

Additional observations from a re-analysis of the deposited data

How the results depend on the processing

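The 49 shared peaks became 16 at a q of 1e-10, 10 at 5 times the local density or more, and 32 in the gene bodies alone, and ranged from 50 to 84 with 1 library left out. The same 7 loci kept a shared peak under each peak setting tried. With library 1 alone *Tln1* and *Fermt3* joined them (range 7 to 9 with 1 library left out). With 50 kb either side 9 loci had a peak, and in the gene bodies alone 6 did, without *Ilk*. The 3 genes with a start-site peak became 1 (*Ilk*) at a q of 1e-10 and at 5 times the local density, and 5 from 5 kb upstream to 1 kb downstream, where *Rap1a* and *Ptk2b* were added. With 1 library left out they were 3 to 5, library 1 alone adding *Tln1* and *Rap1a*, and within 1 kb of the start, with summits within 100 bp or with 100-bp windows *Apbb1ip* was lost (2 genes). The 33 summits with a GATA hexamer became 15 with AGATAA alone (30.6%, against 40.8% of all shared summits), and 31 to 56 with 1 library left out. Of the peak counts of single loci under these settings, 69 stayed within 1.5 times, 5 were higher and 16 lower. The 69 include the *Tln1* and *Fermt3* counts that stayed at 0, and a count of 0 cannot fall. Window width and the library left out set the height of a peak by construction. No paired analysis was possible because both libraries are of the same condition. With library 1 thinned to the read number of library 2, 46 peaks were shared. Of the 84 library 1 peaks in these loci, library 2 lacked 35, and of the 50 library 2 peaks, library 1 lacked 1. Over the genome, 23806 of the 71726 library 1 peaks were shared, a smaller part than in these loci, and library 2 had 28204 peaks. The part of depth in this was not tested. The order of the loci by number and density of peaks changed at both stricter thresholds, where *Rap1a* came first. Both orders also changed in library 1 alone. There *Rap1a* led by density, and *Fyb*, still first by number, was followed by *Ptk2b*. With summits within 100 bp *Fyb* fell from 7.20 to 3.88 per 100 kb, below *Rap1a* (6.14), *Ilk* (4.32) and *Apbb1ip* (4.24). With 100-bp windows *Apbb1ip* fell from 6.36 to 3.53 per 100 kb, below *Ilk* (4.32) and *Ptk2b* (3.58). No input was used here, expression was not measured in these libraries, and a peak is given to a gene by position alone.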
